A study of Aspergillus oryzae with 20 samples.

Results

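The hdaA gene of the koji fungus Aspergillus oryzae (AO090003001321) and the 4 genes that flank it in the reference order, AO090003001319 and AO090003001320 before it and gpdA (AO090003001322) and AO090003001323 after it, were followed across 20 RNA-seq libraries. These are 5 of the 12074 genes listed in every library, and all 5 passed the filter of at least 1 RPKM in at least 5 libraries. RPKM divides reads by gene length and by sequencing depth, so levels can be set beside each other between genes. hdaA was chosen because its level had already been seen to be higher in the strains that lack admB, and its level in those strains is therefore described here without a test. The neighbours were chosen by position alone.

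All strains derive from RIB40 and carry the label del-pyrG[pyrG+ ligD+]. The deletion control has no further deletion, ΔadmA and ΔadmB each lack the gene named, and ΔadmAΔadmB lacks both. The deleted genes are named for ADAM proteins, metalloproteases anchored in membranes. Each strain was sequenced in 5 libraries, made with a TruSeq kit from 4 µg of total RNA of wheat bran cultures kept at 30 °C for 72 h. The labels do not say whether libraries of one strain came from separate flasks or transformants, and the p-values given therefore rest on a spread that may be technical.

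Histone deacetylases remove acetyl groups from lysines in histone tails, a change generally tied to compact chromatin and lower transcription. HdaA is a class II enzyme of filamentous fungi. In Aspergillus nidulans and Aspergillus fumigatus its orthologues affect the activity of secondary metabolite gene clusters. gpdA encodes glyceraldehyde-3-phosphate dehydrogenase of glycolysis, an abundant enzyme whose promoter is widely used to drive foreign genes in Aspergillus. The reference table gives no symbol to AO090003001319, AO090003001320 and AO090003001323, and no role is given to them here.

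The libraries differed within strains as well as between them, and the part of the strain in this was not tested. The RPKM sum ranged from 3974009 to 5401733, and 655 to 1260 genes were listed at 0. By strain the sum was 4053109 to 4664311 in the control and 3974009 to 4550897 in ΔadmA. It was 4266177 to 5401733 in ΔadmB and 3988704 to 5163347 in ΔadmAΔadmB. All sums above the highest control value thus came from strains without admB. The depth in reads is not given by the files; from the steps of low values the deepest library held an estimated 2.15 times the reads of the shallowest, a figure that may be off for single libraries. The same steps divided the libraries into a set of 12 (2 control, 3 ΔadmA, 4 ΔadmB and 3 ΔadmAΔadmB) and a set of 8 (3, 2, 1 and 2), of unknown origin. Across genes, the correlation of log2 values between replicates lay between 0.792 and 0.934, and no pair of libraries held identical values. admA (AO090138000114) was above 0 in 9 of the 10 libraries that keep it, at up to 14.2 RPKM, and in 1 of the 10 that lack it, at 0.092 RPKM. No identifier is paired with the symbol admB in the reference table, so the loss of admB was not checked here.

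hdaA was more abundant in strains without admB, in the presence and in the absence of admA. In the control its level was 1526, 2055, 1632, 1219 and 1041 RPKM in replicates 1 to 5. In ΔadmA it was 1447, 1370, 2470, 1739 and 1157 RPKM. These 10 libraries with admB overlapped broadly. In ΔadmB the values were 1340, 2847, 4005, 2166 and 3023 RPKM, so that replicates 2 to 5 lay above every control value and replicate 1 lay among them. In ΔadmAΔadmB they were 2862, 5973, 3880, 4656 and 3632 RPKM, each above the highest ΔadmA value. Of the 10 libraries without admB, 8 exceeded the highest of the 10 libraries with it.

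**Figure D1:**
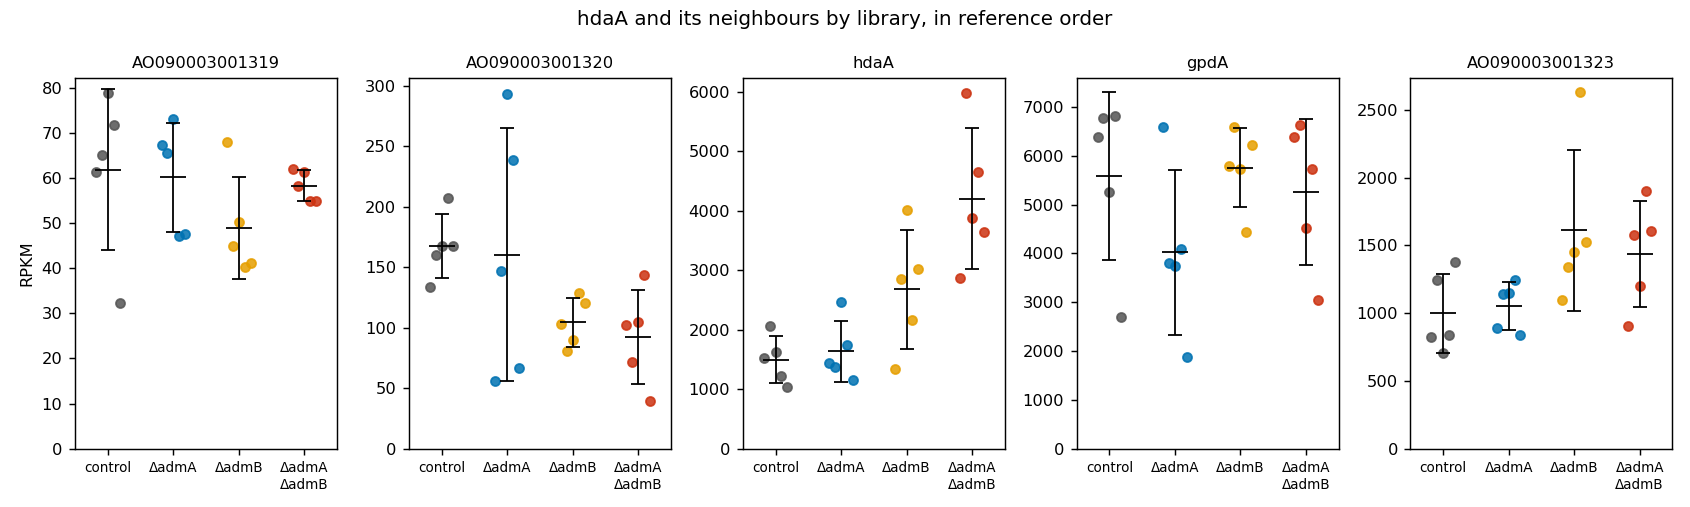
RPKM of hdaA and its 4 neighbours in each library (points, 5 per strain) with the mean and SD (black), each panel on its own linear axis from 0. The 5 hdaA values of ΔadmAΔadmB, 2862 to 5973 RPKM, lie above all values of the control and of ΔadmA, whereas those of gpdA, 3037 to 6622 RPKM, lie among them.

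From lowest to highest, the means were 1495 ± 392 RPKM (SD, n = 5) for the control, 1637 ± 510 for ΔadmA, 2676 ± 995 for ΔadmB and 4201 ± 1180 for ΔadmAΔadmB. Control and ΔadmA did not differ beyond their spread, and the values of ΔadmA and ΔadmB, and of ΔadmB and ΔadmAΔadmB, overlapped. The mean of ΔadmB was 1.79 times that of the control, a difference of 0.79 (SE 0.29) in log2(RPKM + 1), the scale of all differences given here. The mean of ΔadmAΔadmB was 2.57 times that of ΔadmA, a log2 difference of 1.37 (SE 0.29). These are the values hdaA was chosen on. In ΔadmAΔadmB against ΔadmA, 1.77% of the 10652 genes tested passed limma's test. Of the same 10652 genes, 0.836% passed as higher, and in 1.33% the 5 values lay all above. In ΔadmB against the control 0.0% passed and in 0.544% the 5 values lay all above.

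In RPKM, ΔadmB replicate 1 was the one library without admB whose hdaA level lay within the control range. The same library held brlA, the central regulator of conidiophore development, at 29.7 RPKM, against at most 1.36 RPKM in the other 4 ΔadmB libraries. brlA was also at 46.7 RPKM in control replicate 1, 90.2 in ΔadmA replicate 1 and 34.6 in ΔadmAΔadmB replicate 3, and at most 14.5 in the remaining 16. There hdaA was at 1526, 1447 and 3880 RPKM in this order, each the median of its strain. Of the other tested genes of the conidia list below, vosA, flbD and fluG were also highest in ΔadmB replicate 1 within that strain. In contrast, ayg1, flbA, flbB, medA, pksP and wetA lay within the range of the other 4 ΔadmB libraries. The part of the developmental state of the culture in the hdaA values was not tested. Without ΔadmB replicate 1 the difference from the control was 1.02, and without ΔadmB replicate 3, the highest, it was 0.62.

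Loss of admA, a contrast not used to choose hdaA, gave no difference past the threshold of an adjusted p of 0.05. ΔadmA differed from the control by 0.12 (SE 0.29, 95% interval -0.49 to 0.73, limma adjusted p = 0.94), where 1.08% of all genes passed. ΔadmAΔadmB differed from ΔadmB by 0.70 (SE 0.29, 95% interval 0.087 to 1.31, limma adjusted p = 0.83, unadjusted p = 0.028), where 0.0% passed and 612 genes had an unadjusted p under 0.05. Of its 5 libraries, 2 lay above all 5 of ΔadmB. The 2 admB contrasts of hdaA, 0.79 and 1.37, lie 0.58 (SE 0.41) apart. Since both were used to choose the gene, that difference is given without a test, and whether the backgrounds differ is not shown either way.

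Within the libraries, hdaA was among the abundant transcripts. By its mean over all 20 libraries, 2502 RPKM, it ranked 306 of 12074 genes; the median gene was at 33.2 RPKM. It ranked 355 to 676 in control libraries, 305 to 648 in ΔadmA, 162 to 576 in ΔadmB and 122 to 277 in ΔadmAΔadmB. Its share of the RPKM sum was 0.022% to 0.048% in the control and 0.026% to 0.061% in ΔadmA. The share was 0.030% to 0.094% in ΔadmB and 0.064% to 0.13% in ΔadmAΔadmB. By share, ΔadmB replicate 4, at 0.040%, lay within the control range beside replicate 1, at 0.030%. ΔadmB replicate 5, at 0.060%, lay below the highest ΔadmA share.

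The level of hdaA stood out from the genes before it and next to an even more abundant gene after it. Among 10 genes on each side in reference order, gpdA was the 1 gene of 20 with a higher mean. The 16 genes of this window outside the immediate neighbours had means of 5.19 to 608 RPKM with a median of 57.0. hdaA was higher than AO090003001319 and AO090003001320 in 20 of 20 libraries, with a mean 43.7 and 19.1 times theirs, and higher than AO090003001323 in 18 of 20, with a mean 1.96 times as high. It was higher than gpdA in 1 of 20, ΔadmAΔadmB replicate 5, and its mean over all libraries was 0.486 of that of gpdA.

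**Figure D2:**
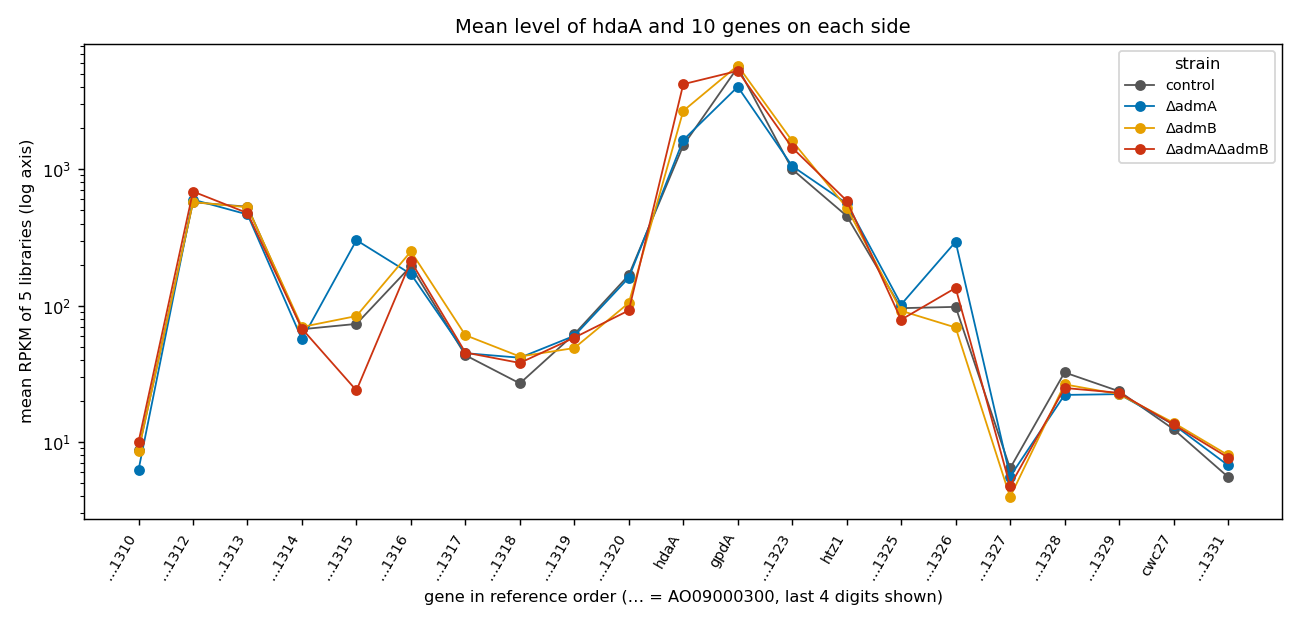
Mean RPKM per strain (5 libraries each, log axis) of hdaA and the 10 genes on each side in the order of the reference table. The levels peak at hdaA and gpdA, where the strain means of hdaA run from 1495 to 4201 RPKM and those of gpdA from 4019 to 5752.

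gpdA passed in no comparison. The control libraries held it at 6378, 6769, 5256, 6805 and 2704 RPKM (replicates 1 to 5), those of ΔadmB at 5798, 6593, 5719, 4440 and 6208. In ΔadmA it was 6589, 3803, 3740, 4088 and 1874 RPKM, and in ΔadmAΔadmB it was 6387, 6622, 4514, 5730 and 3037 RPKM. All 4 strains overlapped, and replicate 5 was the lowest library of each strain except ΔadmB. ΔadmB differed from the control by 0.11 (SE 0.32, 95% interval -0.56 to 0.77, limma adjusted p = 0.93). ΔadmAΔadmB differed from ΔadmA by 0.44 (SE 0.32, 95% interval -0.22 to 1.10, limma adjusted p = 0.72), a ratio of means of 1.31. For loss of admA the differences were -0.51 (limma adjusted p = 0.66) and -0.17 (limma adjusted p = 0.98).

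AO090003001323, the gene after gpdA, had the same sign as hdaA in both comparisons for admB. Its control values were 824, 1244, 707, 839 and 1375 RPKM for replicates 1 to 5, and its ΔadmB values 1100, 1337, 1453, 2635 and 1526. Of the ΔadmB libraries 3 lay above every control, with replicate 4 far above the others. The difference was 0.67 (SE 0.26, 95% interval 0.13 to 1.21) and did not pass over all genes (limma adjusted p = 0.60, unadjusted p = 0.018); with sample quality weights it passed (0.70, limma adjusted p = 0.038), as did 746 genes. In ΔadmAΔadmB it was at 906, 1579, 1198, 1903 and 1603 RPKM against 893, 1143, 1151, 1243 and 839 RPKM in ΔadmA, a difference of 0.42 (SE 0.26, limma adjusted p = 0.66). Here again 3 of 5 lay above every ΔadmA value. For loss of admA it differed by 0.11 and -0.14 (limma adjusted p = 0.94 and 0.98).

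AO090003001320, the gene just before hdaA, had the opposite sign. The control values were 134, 160, 168, 207 and 168 RPKM for replicates 1 to 5, against 103, 80.5, 90.0, 129 and 121 for ΔadmB. Each ΔadmB value lay below each control value, as was the case for 0.573% of all tested genes. The difference of -0.68 (SE 0.41, 95% interval -1.54 to 0.17) did not pass limma's test (adjusted p = 0.67). In ΔadmA it spread from 56.1 to 293 RPKM and in ΔadmAΔadmB from 39.3 to 143, a difference of -0.62 (SE 0.41, limma adjusted p = 0.68). Without admA it differed by -0.34 and -0.28 (limma adjusted p = 0.87 and 0.98).

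AO090003001319 overlapped between all strains. Control libraries spanned 32.2 to 78.8 RPKM, ΔadmA libraries 47.2 to 73.1, ΔadmB libraries 40.3 to 67.9 and ΔadmAΔadmB libraries 54.9 to 61.9. Its differences for loss of admB were -0.30 (SE 0.22) and -0.02 (SE 0.22), with limma adjusted p = 0.72 and 0.99. In all, 0 of the 4 neighbours passed in any of the 4 comparisons by limma's test. Of all tested genes 0.0% to 1.77% did. At an unadjusted limma p under 0.05 there was 1 neighbour, AO090003001323 in ΔadmB against the control, and 864 of the 10652 tested genes.

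**Figure D3:**
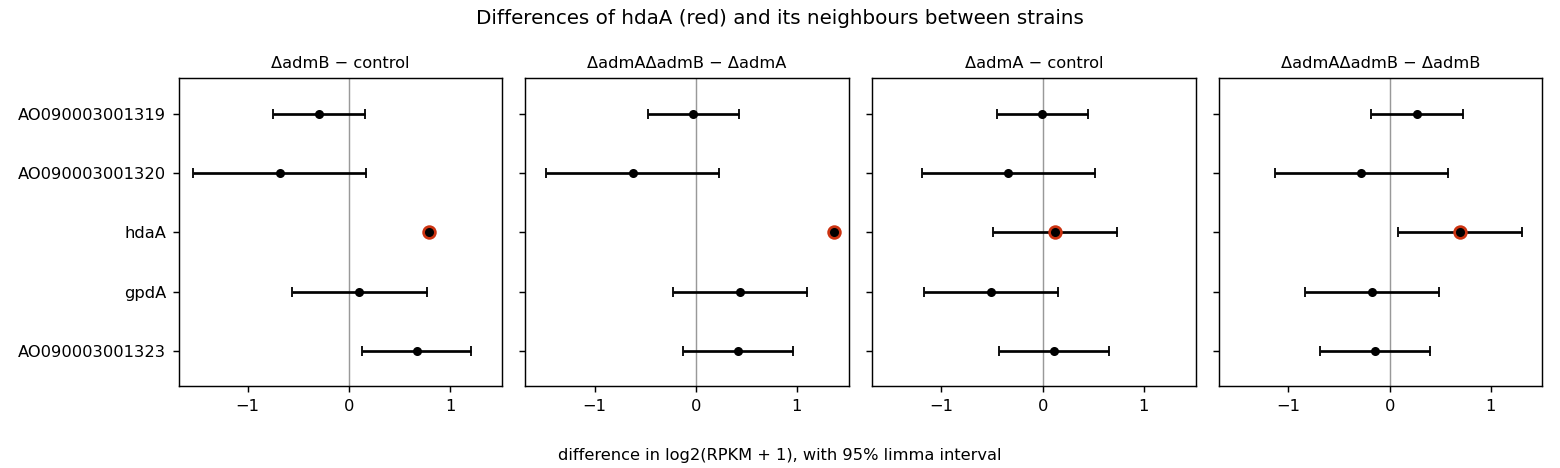
Differences in log2(RPKM + 1) between strains for hdaA (red) and its neighbours, with 95% limma intervals (bars). No interval is drawn for hdaA in the first 2 panels, on which it was chosen; its points there are at 0.79 and 1.37, whereas those of gpdA are at 0.11 and 0.44.

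Whether hdaA follows a neighbour from library to library was examined by correlating log2(RPKM + 1). Over all 20 libraries the correlation contains the difference for loss of admB on which hdaA was chosen, so it is given there as a description without a p. A p is given only within the 10 libraries with admB and the 10 without it, with 4 relations adjusted together on each side. With gpdA, Pearson's r over 20 libraries was 0.31 and Spearman's rank correlation 0.19. Without the 2 libraries farthest from the median of hdaA, ΔadmAΔadmB replicates 2 and 4, r was 0.23. Within the libraries with admB r was 0.36 (permutation p = 0.31, adjusted 0.42) and Spearman's rank correlation 0.27 (permutation p = 0.45, adjusted 0.60). Within those without it r was 0.021 (permutation p = 0.95, adjusted 1.0) and Spearman's rank correlation 0.067 (permutation p = 0.87, adjusted 0.92). A relation of hdaA to gpdA thus did not pass the threshold on either side. Each side pools 2 strains and the permutations ran across both, so a difference between those strains enters each r within a side. With strain means removed, r over 20 libraries was 0.35 for gpdA and 0.28 for AO090003001323, given without a test. As a description chosen after the values were seen, the 9651 pairs of adjacent tested genes had a median r of 0.15 over 20 libraries, with 95% of pairs between -0.59 and 0.91, and 65.7% of pairs lay below the pair of hdaA and gpdA. Whether reads from gpdA were assigned to hdaA was not tested, since the files hold no reads.

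With AO090003001323 Pearson's r over 20 libraries was 0.54 and Spearman's rank correlation 0.62, and r was 0.44 without the same 2 libraries. Within either side no relation passed, with r at 0.18 with admB (permutation p = 0.62, adjusted 0.62) and 0.18 without it (permutation p = 0.62, adjusted 1.0). Spearman's rank correlation was 0.091 (permutation p = 0.81, adjusted 0.81) and 0.31 (permutation p = 0.39, adjusted 0.92). Values from 10 libraries were unstable: without the 2 farthest of each side, r was 0.50 with admB and -0.19 without it. For gpdA the same step gave 0.47 and -0.080.

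The correlations with the genes before hdaA also differed in value between the sides. With AO090003001319 r was -0.031 over 20 libraries, 0.54 with admB (permutation p = 0.11, adjusted 0.35) and 0.00042 without it (permutation p = 1.0, adjusted 1.0). It was 0.10 and 0.58 without the 2 farthest libraries of each side. With AO090003001320 r was -0.30 over 20 libraries, 0.46 with admB (permutation p = 0.17, adjusted 0.35) and -0.23 without it (permutation p = 0.49, adjusted 1.0), or 0.40 and -0.10 without the 2 farthest. Spearman's rank correlation within the sides was 0.39 and 0.042 for the former and 0.44 and -0.15 for the latter, with permutation adjusted p of 0.53 and 0.92 for each. None of these relations passed, and the difference between the sides was not tested.

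**Figure D4:**
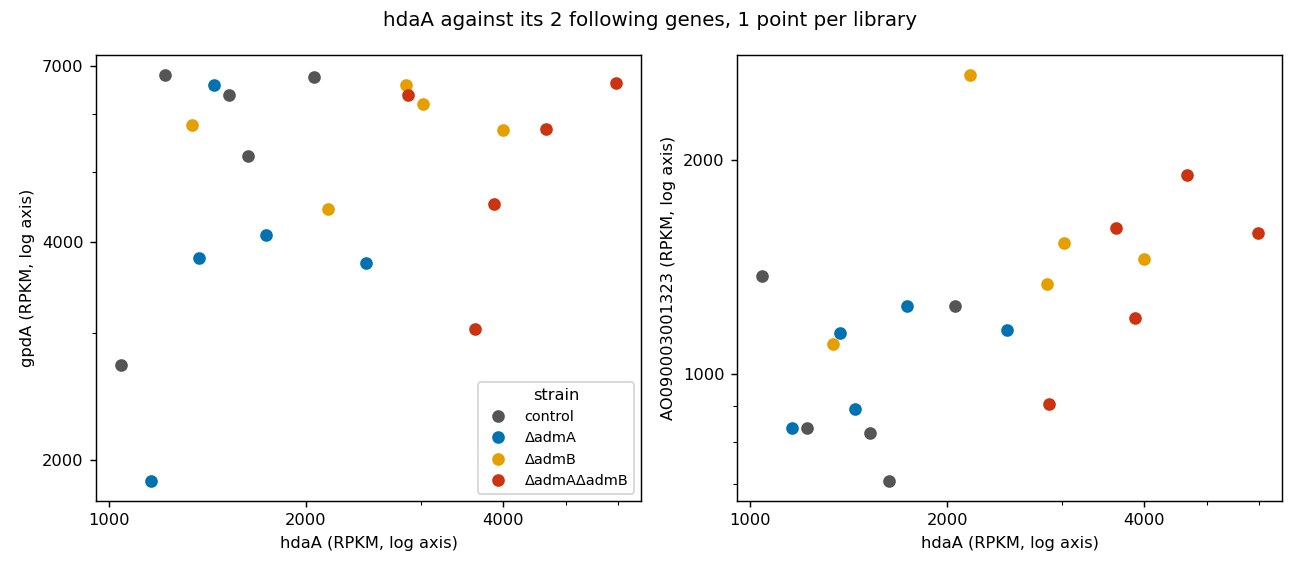
RPKM of hdaA against gpdA (left) and AO090003001323 (right), 1 point per library, both axes logarithmic. At hdaA levels from 1041 to 5973 RPKM the points for gpdA scatter widely (r = 0.31 over all 20), and most libraries without admB lie to the right of those with it.

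The ratio of hdaA to gpdA summarises both genes in each library. Control libraries had ratios of 0.18 to 0.39, ΔadmA 0.22 to 0.66, ΔadmB 0.23 to 0.70 and ΔadmAΔadmB 0.45 to 1.20. The log2 ratio was higher by 0.68 in ΔadmB than in the control and by 0.92 in ΔadmAΔadmB than in ΔadmA, given as descriptions. For loss of admA it differed by 0.63 (two-sided exact permutation test, p = 0.11, adjusted 0.22 over 8 ratio tests) between ΔadmA and the control. Between ΔadmAΔadmB and ΔadmB it differed by 0.87 (exact permutation p = 0.032, adjusted 0.13), where 5 libraries against 5 cannot give a p below 0.0079. The log2 ratio of hdaA to AO090003001323 differed by 0.12 between ΔadmB and the control but by 0.95 between ΔadmAΔadmB and ΔadmA. Between ΔadmAΔadmB and ΔadmB it differed by 0.84 (exact permutation p = 0.032, adjusted 0.13).

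Farther along the same stretch, htz1 (AO090003001324), the gene of the histone variant H2A.Z, follows AO090003001323. Mean levels were 454 ± 80.4 RPKM (SD, n = 5) for the control, 562 ± 72.8 for ΔadmA, 524 ± 94.0 for ΔadmB and 588 ± 182 for ΔadmAΔadmB, and it differed by 0.20 and 0.029 for loss of admB. None of the 20 window genes passed limma's test in any of the 4 comparisons, where 0.0% to 1.77% of all tested genes did. An unadjusted limma p under 0.05 was found for 2 in ΔadmB against the control and 3 in ΔadmAΔadmB against ΔadmA. It was found for 1 each in ΔadmA against the control and ΔadmAΔadmB against ΔadmB. Over all 10652 tested genes the counts were 864, 1137, 1096 and 612 in the same order. The largest difference in the window was that of AO090003001315, at 31.0 to 741 RPKM in ΔadmA and 2.91 to 47.9 in ΔadmAΔadmB (-3.29, SE 0.87, limma adjusted p = 0.066). AO090003001326 was at 114 to 446 RPKM in ΔadmA and 43.4 to 192 in the control (1.64, SE 0.40, limma adjusted p = 0.060). It passed at 1.95 without ΔadmA replicate 1 (limma adjusted p = 0.0072), where 307 of the 10652 tested genes passed. Without control replicate 5 it passed at 1.93 (limma adjusted p = 0.029), where 99 genes did. AO090003001315 passed without ΔadmA replicate 2, at -3.91 (limma adjusted p = 0.026), where 139 genes did. It also passed without ΔadmB replicate 4 (limma adjusted p = 0.048), where 209 genes did. That library lies outside the comparison, so the difference stayed at -3.29.

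Besides hdaA, 10 genes that add, remove or act through histone marks had a symbol in the reference table. By limma's test 0 of these 10 passed in any comparison, where 0.0% to 1.77% of all tested genes did. In ΔadmAΔadmB against ΔadmA 7 were positive, with a median difference of 0.047 against -0.0078 over all tested genes. At an unadjusted limma p under 0.05 there were 0 of the 10 and 1137 of all 10652 tested genes. In ΔadmB against the control 5 of the 10 were positive, with a median of 0.041 against -0.0038. Here 3 of the 10 and 864 of all 10652 had an unadjusted limma p under 0.05. rpdA, the class I deacetylase, lay between 26.3 and 39.2 RPKM in all 20 libraries, with means of 29.2 for the control and 34.9 for ΔadmB (0.25, SE 0.12, limma adjusted p = 0.62). Its means were 29.5 RPKM for ΔadmA and 30.8 for ΔadmAΔadmB (0.059, limma adjusted p = 0.95). Summed over the 10 genes, the control spanned 2097 to 5734 RPKM, ΔadmA 2278 to 5673, ΔadmB 2988 to 4924 and ΔadmAΔadmB 1992 to 4894, overlapping throughout.

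Of these genes, rcoA, the Tup1-type corepressor, had a higher mean than hdaA in the control and in ΔadmA and a lower one in both strains without admB. Its means were 1904 ± 1450 RPKM (SD, n = 5) for the control, 2194 ± 1355 for ΔadmA, 2341 ± 741 for ΔadmB and 2075 ± 1179 for ΔadmAΔadmB. hdaA was the highest of the 11 genes in 15 of 20 libraries, and its ratio to the highest other gene ranged from 0.27 to 5.02 with a median of 1.20. The other deacetylase in the table, rpdA, had a mean of 31.1 RPKM over all libraries against 2502 for hdaA.

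**Figure D5:**
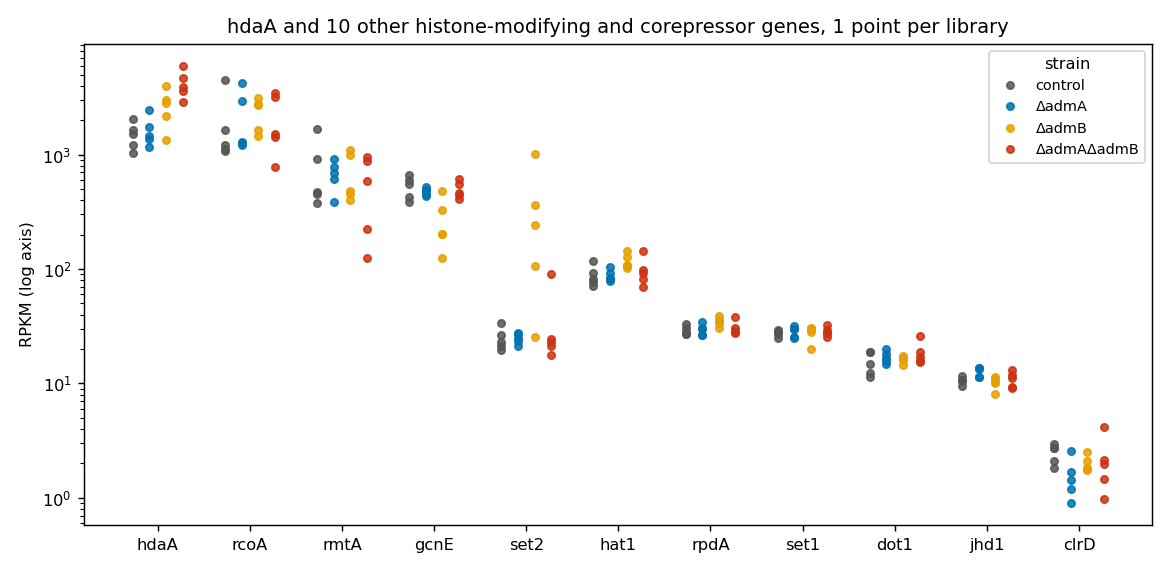
RPKM (log axis) of hdaA and 10 other histone-modifying and corepressor genes in each library, ordered by mean level. hdaA and rcoA exceed 700 RPKM in every library, set2 is spread from 25.7 to 1020 RPKM in ΔadmB, and rpdA stays between 26.3 and 39.2 RPKM.

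In ΔadmB, 2 of these genes departed most from the control. set2, a histone H3 methyltransferase that travels with RNA polymerase II, was at 19.7, 21.1, 34.0, 23.2 and 26.5 RPKM in the control and at 25.7, 241, 106, 363 and 1020 RPKM in ΔadmB. ΔadmB replicate 1 again lay within the control range, as it did for hdaA. The difference was 2.91 (SE 0.67, limma adjusted p = 0.59), and without that library 3.62 (adjusted p = 0.021), where 1 gene in all passed. In ΔadmAΔadmB set2 was at 17.8 to 91.1 RPKM, a difference from ΔadmB of -2.68 (limma adjusted p = 0.81), which uses the same ΔadmB libraries. It too passed without ΔadmB replicate 1, at -3.39 (adjusted p = 0.047). gcnE, the catalytic acetyltransferase of the SAGA complex, was at 384 to 659 RPKM in the control and 126 to 477 in ΔadmB (-1.09, SE 0.27, limma adjusted p = 0.59). It was at 435 to 523 RPKM in ΔadmA and 407 to 608 in ΔadmAΔadmB. Of the rest, rcoA differed by 0.48 (SE 0.48, limma adjusted p = 0.78) in ΔadmB against the control. hat1, a histone acetyltransferase gene, differed by 0.42 (SE 0.19, limma adjusted p = 0.61, unadjusted p = 0.036). clrD, a histone H3 methyltransferase of heterochromatin, was the lowest after gcnE at -0.21 (SE 0.22, limma adjusted p = 0.79). In ΔadmAΔadmB against ΔadmA the highest values were 0.26 for clrD and 0.21 for set2, with limma adjusted p = 0.80 and 0.97, and the lowest were -0.62 (SE 0.54) for rmtA, an arginine methyltransferase, and -0.21 (SE 0.13) for the demethylase gene jhd1, with limma adjusted p = 0.80 and 0.64.

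Of 15 genes of histones, histone chaperones and chromatin remodellers, 0 passed in any comparison, where 0.0% to 1.77% of all tested genes did. In ΔadmB against the control 10 of the 15 were positive with a median of 0.20, and in ΔadmAΔadmB against ΔadmA 9 were, with a median of 0.019. Among all tested genes 49.7% and 49.1% were positive, with medians of -0.0038 and -0.0078. At an unadjusted limma p under 0.05 there were 2 and 0 of the 15, against 864 and 1137 of all 10652 tested genes. hhtA, the histone H3 gene, was at 18057 ± 3779 RPKM (SD, n = 5) in the control and 16257 ± 1562 in ΔadmAΔadmB. rtt106, a histone chaperone gene in yeast, differed by 0.86 (SE 0.41, limma adjusted p = 0.61) in ΔadmB against the control and by 0.32 in ΔadmAΔadmB against ΔadmA. hir1, of the yeast HIR chaperone complex, had the lowest value of the list in all 4 comparisons. It differed by -1.45 and -1.10 for loss of admB and by -2.67 and -2.33 for loss of admA, with an SE of 1.12. Its control libraries spanned 47.6 to 2216 RPKM. hir1 was at 3867 RPKM in ΔadmB replicate 2 and at 40.4 to 429 in the other 4.

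For secondary metabolism, the process that HdaA orthologues affect in other Aspergillus species, a list of 6 genes was examined. It held veA and vosA of the velvet family, the bZIP gene rsmA and 3 identifiers put on it without an annotation in the table, so that its counts and sums are not those of known regulators alone. By limma's test 0 of the 6 passed in any comparison, where 0.0% to 1.77% of all tested genes did. Medians of the 6 were -0.18 in ΔadmB against the control and 0.14 in ΔadmAΔadmB against ΔadmA. Those of all tested genes were -0.0038 and -0.0078. At an unadjusted limma p under 0.05 there were 1 and 0 of the 6, against 864 and 1137 of all 10652 tested genes. The extremes were vosA at -0.84 (SE 0.39, limma adjusted p = 0.61) and rsmA at 0.24 (SE 0.14, limma adjusted p = 0.66) in ΔadmB against the control. In ΔadmAΔadmB against ΔadmA vosA differed by -0.49 and veA by -0.19, with limma adjusted p = 0.77 and 0.90, and the 2 highest were identifiers without a symbol. Summed over the list, the control spanned 155 to 199 RPKM, ΔadmA 160 to 212, ΔadmB 142 to 197 and ΔadmAΔadmB 142 to 206.

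Of markers of conidia and conidiophores, the cells a wheat bran culture can hold beside hyphae, 0 of 10 tested members passed in any comparison. Of all tested genes 0.0% to 1.77% did. In ΔadmB against the control 8 of the 10 were negative (median -0.39), and in ΔadmAΔadmB against ΔadmA 7 were (median -0.30). Over all tested genes 49.7% and 49.1% were positive, with medians of -0.0038 and -0.0078. Summed over the list, the control spanned 1843 to 2831 RPKM, ΔadmA 1340 to 3759, ΔadmB 1671 to 2194 and ΔadmAΔadmB 557 to 2530. The regulator flbB was a large part of most sums, at 1270 to 2007 RPKM in the control. It was at 110 RPKM in ΔadmAΔadmB replicate 4, the library with the lowest sum. The sums are therefore no measure of conidia alone. At an unadjusted limma p under 0.05 there were 1 and 0 of the 10 tested members in these 2 comparisons for admB, against 864 and 1137 of all 10652 tested genes. The symbol arp2 on this list, which is also in use for an actin-related protein, was listed at 0 in all but 2 libraries and was the 1 untested member. In bulk RNA fewer cells of a type and less RNA per cell cannot be told apart, and the part of cell composition in the hdaA values was not tested.

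The genes most like hdaA over the 20 libraries were named by Pearson's r in log2(RPKM + 1), as a description with no test, since hdaA and depth are shared by all of them. Over all 10651 other tested genes r had a median of 0.017, and 20 genes exceeded 0.7. The highest were AO090005001100, at 0.81, and AO090026000126, at 0.80, which have no symbol. Mean levels of AO090005001100 were 24.2 RPKM for the control, 19.9 for ΔadmA, 32.2 for ΔadmB and 40.6 for ΔadmAΔadmB. The first 5 genes with a symbol were yphA (0.634), adB (0.633), cdc31 (0.608), cwh41 (0.562) and ilv3 (0.554), of ranks 58 to 190. Of the neighbours, AO090003001323 ranked 208 and gpdA 1470.

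With the strain means removed, so that only variation among libraries of one strain remained, the list changed. The first were AO090001000295, at 0.85, and AO090023000209, at 0.80, and among genes with a symbol lys9 (0.746), cwh41 (0.681), sac6 (0.660), sebA (0.643) and psf2 (0.641). cwh41, in yeast the glucosidase that first trims N-glycans in the endoplasmic reticulum, was the 1 gene with a symbol on both lists, with means of 291 RPKM for the control, 340 for ΔadmA, 426 for ΔadmB and 366 for ΔadmAΔadmB. By this measure gpdA ranked 1228 at 0.35 and AO090003001323 ranked 1820 at 0.28.

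The hdaA differences for loss of admB had the same sign within each set of libraries. In the set of 12 the difference between ΔadmB and the control was 0.95, and that between ΔadmAΔadmB and ΔadmA 1.35. In the set of 8, which holds 1 ΔadmB library, they were 0.83 and 1.39. The 2 ΔadmAΔadmB libraries of that set were at 3880 and 5973 RPKM and the 2 ΔadmA libraries at 1370 and 2470 RPKM.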

How the data were processed

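The authors deposited 1 table per library; per the file headers its values are RPKM. The submitters' processing notes name TopHat2 2.0.9, Cufflinks 2.1.1, CASAVA 1.8.2 and FastQC 0.10.1. What each did, the build, the annotation and the handling of strand were not given in the sources used here. All 12074 identifiers matched the RefSeq table of assembly ASM18445v3, used for symbols (714 genes) and gene order only.

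Because RPKM are not counts, log2(RPKM + 1) was fitted with limma 3.58.1 in R 4.3.3 (1 mean per strain over 20 libraries, trended prior, two-sided, unblocked). P-values were adjusted by Benjamini-Hochberg over the 10652 genes that reached 1 RPKM in 5 or more libraries, with a threshold of 0.05. This scale understates changes of low genes. The fit was tested on simulated data. Correlations used 100000 permutations (numpy 2.4.6, scipy 1.17.1), and ratios exact permutation tests of 252 splits.

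For hdaA, the interaction and the correlations over 20 libraries were planned as tests but hold the contrast it was chosen on, so no p is given. The members, gene lists, rules and alternatives were chosen with earlier results of these data known. Named genes were mainly the members, list members drawn from the 2 with the largest difference each way, and the genes most correlated with hdaA (5 with a symbol, 2 without). Others were named outside this rule, among them rpdA, hat1, hhtA, htz1 and further members of the conidia list. Pseudocounts, filters, scalings, weights, library sets, a replicate block and leaving out each library were tried. The depth in reads is unknown, so no counting interval is given. The files used here hold no sequences, so none is printed.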

Additional observations from a re-analysis of the deposited data

Results flagged for a closer look

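Among the 20 groups of 5 libraries formed by the 5 genes and 4 strains, 2 had a library far from the other 4 by Dixon's criterion on the log2 scale, and chance alone gives about 1 group in 20. Both were control replicate 5, in which gpdA was at 2704 RPKM against 5256 to 6805 in the other controls, and AO090003001319 at 32.2 RPKM against 61.2 to 78.8. hdaA was also lowest among the controls there, at 1041 RPKM, but was not set apart by this criterion.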

How the results depend on the processing

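The hdaA difference kept its direction in all 33 alternatives, at 0.62 to 1.02 for ΔadmB against the control and 1.23 to 1.53 for ΔadmAΔadmB against ΔadmA. Many alternatives could not move it. Other filters, no trend, the replicate block and leaving out a library of a strain outside the comparison return the same difference. Since hdaA was chosen on this rise, the count is a description and no test. The gap between the 2 differences, which could not be computed from only the 2 strains compared, was 0.30 to 0.75 in the other 32. ΔadmAΔadmB against ΔadmB (0.47 to 0.87, limma adjusted p = 0.45 to 1.0) never passed. Deviations of same-numbered libraries correlated at -0.225 to 0.473. Of 20 such pairs over the 4 comparisons, 12 exceeded 0.1 and 14 matched best with their own number, a hint of shared numbers from the data; since not every pair exceeded 0.1 and no label gives a shared origin, the numbers were not taken as pairs. The replicate block left the hdaA differences at 0.79 and 1.37 and called 0 neighbours, while calls over all genes went from 115 to 201 (ΔadmA against control) and from 189 to 289 (ΔadmAΔadmB against ΔadmA).

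Sample quality weights call 746 genes in ΔadmB against the control. Calls appeared there for 1 neighbour (AO090003001323, 0.70, limma adjusted p = 0.038), 4 histone-modifying genes and 1 of the histone and remodeller list. AO090003001323 is also the 1 call of the window there. AO090003001326 is the 1 window call each in ΔadmA against control and ΔadmAΔadmB against ΔadmA, where the weights call 686 and 411 genes. Leaving out 1 library gave 0 to 1 calls for histone-modifying genes in both comparisons of ΔadmB, and 0 to 1 for the window in both comparisons of ΔadmA. Over all tested genes these comparisons then had 0 to 1 and 24 to 307 calls.

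Of the values that changed sign, those with a test were short of the threshold in every setting, and the cause was not tested. For AO090003001319 in ΔadmA against control (-0.0024) they were 0.018 with median-of-ratios rescaling, 0.0064 with quantile normalization, 0.054 with library set as a covariate and -0.22 to 0.099 leaving out 1 library. Under the covariate the AO090003001320 interaction was -0.063. In library set 1 alone AO090003001319 gave 0.25 (ΔadmA), 0.13 (ΔadmB), 0.10 (ΔadmAΔadmB against ΔadmA) and -0.032 (interaction), AO090003001323 -0.12 (ΔadmA), the gpdA interaction -0.025, r of hdaA with AO090003001319 0.12 and their ratio in ΔadmA -0.075. In library set 2 alone AO090003001320 gave 0.23 (ΔadmA), 0.10 (ΔadmAΔadmB against ΔadmB) and -0.12 (interaction), AO090003001323 0.040 (ΔadmAΔadmB against ΔadmB), and the ratios of hdaA to AO090003001320 and AO090003001323 in ΔadmA -0.023 and -0.14. With weights AO090003001320 gave 0.067 (ΔadmA) and -0.15 (interaction).

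Leaving out 1 library moved hdaA in ΔadmA against control from -0.041 to 0.24, gpdA from -0.14 to 0.20 (ΔadmB) and -0.27 to 0.012 (ΔadmAΔadmB against ΔadmB), AO090003001319 from -0.10 to 0.053 (ΔadmAΔadmB against ΔadmA), the AO090003001320 interaction from -0.25 to 0.35, and AO090003001323 from -0.0018 to 0.24 (ΔadmA) and -0.26 to 0.051 (ΔadmAΔadmB against ΔadmB). The log2 ratio of hdaA to AO090003001319 went from -0.0095 to 0.22 (ΔadmA), and that to AO090003001323 from -0.24 to 0.16 (ΔadmA) and -0.13 to 0.36 (ΔadmB). The correlation with AO090003001319 went from -0.29 to 0.041. That with AO090003001323 went from 0.49 to 0.67 and is given without a p, since it holds the contrast hdaA was chosen on.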

Other observations

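The corepressor gene rcoA was the gene closest to hdaA in level among the histone-modifying genes. Its levels fell on either side of a gap, and each strain had libraries on both sides. rcoA was at 773 to 1655 RPKM in 12 libraries and at 2735 to 4466 RPKM in 8. The higher libraries were 1 of 5 control, 2 of 5 ΔadmA, 3 of 5 ΔadmB and 2 of 5 ΔadmAΔadmB libraries. The gap was noticed in the data, and neither it nor the part of the strain in it was tested.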
